A study of Rattus norvegicus with 6 samples.

Results

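The 33 genes described here encode proteins of fatty acid oxidation and ketone body metabolism, together with the regulators and lipid-handling proteins that work with them, in rat renal cortex. They were chosen by name, and a probe was assigned to a gene where the accession printed for it in the array file belongs to that gene. All 33 genes had probes, 53 in total, out of 15645 genes named on the array. Of these genes 32 passed the detection filter, a probe well above background throughout the vehicle or the treated group, and were tested. The exception was Ucp3, a mitochondrial carrier protein whose 2 probes were not well above background on any array and gave processed intensities of 3.65 to 8.73.

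Renal cortex was taken from male Sprague-Dawley (Crl:CD(SD)) rats that were 5 weeks old when purchased. The vehicle group of 3 rats received corn oil for 4 weeks. The treated group of 3 rats received p-nitroanisole, an aromatic nitro compound, at 500 mg/kg/day for 4 weeks. All animals were fed a basal diet with tap water, and RNA from each animal was hybridised in 1 colour (Cy3) to 1 Agilent array, so the p-values below measure the spread between 3 animals per group.

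Renal proximal tubule cells draw much of their energy from fatty acids. A fatty acid is bound and activated to its acyl-CoA, long chains are passed into the mitochondrion as carnitine esters, and the chain is then shortened in repeated rounds of dehydrogenation, hydration, a second dehydrogenation and thiolysis. Peroxisomes shorten very long and branched chains with their own enzymes, and many genes of both routes are known targets of the fatty acid sensor PPAR-alpha, which binds DNA as a partner of the retinoid X receptor at a pair of direct repeats spaced by a single base, called DR1.

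All levels below are log2 of the processed intensity minus the log2 of that array's 75th percentile, which was 877 to 1022 across the 6 arrays. No spot was saturated, and 66.4% to 69.2% of the 61537 probes were well above background on each array. Vehicle replicates 1 to 3 and treated replicates 1 and 2 lay on one slide and treated replicate 3 on another. On the first slide the vehicle arrays were all in row 1 and the treated arrays in row 2, so in every value given within that slide treatment and row cannot be told apart. Proximal tubule markers were measured in all samples, with a summed linear level over 14 genes of 1928 to 2133 in the vehicle group and 2008 to 2154 in the treated group. Such a sum mostly follows its brightest genes. Taken singly, 11 of the 14 were higher with treatment and 3 lower, with a median log2 difference of 0.11, beside 0.01 over all rows. Across the 32197 rows tested (a gene, or a probe with no gene name), 24 passed an adjusted p of 0.05 in limma, which is 0.0745% of them.

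Promoters are shown for the members whose window held a close match to DR1, since many members are known PPAR-alpha targets. The window ran from 250 bases before to 50 bases after each RefSeq start site (GRCr8), and the motif searched on both strands was AGGTCA, 1 base of any kind and AGGTCA again, with at most 2 mismatches among its 12 fixed letters. A window was found for 28 members, and 5 of them held a match. By windows this was 17.2% of 29, beside 3.77% of all 33469 promoter windows of that length. The capitals mark the match, and each sequence reads 5′ to 3′ on the gene's strand.
Fabp1, chr4:104749203-104749335, plus strand: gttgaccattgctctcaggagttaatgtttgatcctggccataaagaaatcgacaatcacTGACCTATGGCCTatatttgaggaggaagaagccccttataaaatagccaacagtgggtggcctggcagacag
Creb3l3, chr7:9273070-9273198, plus strand: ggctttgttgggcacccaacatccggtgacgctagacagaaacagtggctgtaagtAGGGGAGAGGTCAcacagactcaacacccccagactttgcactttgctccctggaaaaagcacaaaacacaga
Acadvl, chr10:55236706-55236782, minus strand: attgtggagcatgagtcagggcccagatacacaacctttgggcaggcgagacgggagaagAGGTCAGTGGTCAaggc
Slc25a20, chr8:118243588-118243600, plus strand: AGGTGAAAGGTCG
The Fabp1 match began 77 bases before the start site, lay on the opposite strand and had 1 mismatch. The Acadvl match began 17 bases before the start and also had 1 mismatch. The Creb3l3 match began 194 bases before the start and had 2 mismatches, and the Slc25a20 match lay after the start with 2 mismatches. The fifth match, in Ucp3, had 2 mismatches. These are descriptions of letters in the windows. The tested genes with a match had log2 differences, treated minus vehicle, of -0.93 (Creb3l3), -0.63 (Fabp1), -0.13 (Slc25a20) and 0.06 (Acadvl).

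The comparison asked how p-nitroanisole treatment altered these transcripts in the cortex. None of the 32 tested members passed an adjusted p of 0.05 in limma, beside 0.0745% of all rows, and the smallest adjusted p was 0.147, for the auxiliary beta-oxidation enzyme Decr1. At an unadjusted p under 0.05 there were 6 lower members, Creb3l3, Fabp1, Hadh, Decr1, Pex11a and Vnn1, while 5.76% of all rows were lower at that level. Cpt1b was the 1 higher member, beside 7.69% of all rows. This count of 7 ranged from 3 to 7 when 1 array was left out, and was 3 without vehicle replicate 1 or without vehicle replicate 2.

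The log2 difference was below 0 in 22 of the 32 members (68.8%) and in 47.6% of all rows, with medians of -0.10 and 0.01. Without treated replicate 3 the count was 18 and the median -0.03. All 3 treated arrays lay below all 3 vehicle arrays for 7 members (21.9%), compared with 10.3% of all rows. These were Creb3l3, Fabp1, Hadha, Hadh, Decr1, Pex11a and Vnn1. Only Cpt1b lay above on all treated arrays, compared with 11.9% of all rows. Each gene was counted by its brightest kept probe. On the other probes of Creb3l3, Fabp1, Hadha and Cpt1b the groups overlapped, whereas on those of Hadh and Pex11a they did not. Most differences were small: 16 members differed by under 0.2 in log2, and 4, namely Creb3l3, Fabp1, Bdh1 and Pdk4, by 0.5 or more. Bulk cortex RNA was measured, so fewer cells of a type and less RNA per cell cannot be told apart, and the number of arrays limits the precision.

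**Figure D1:**
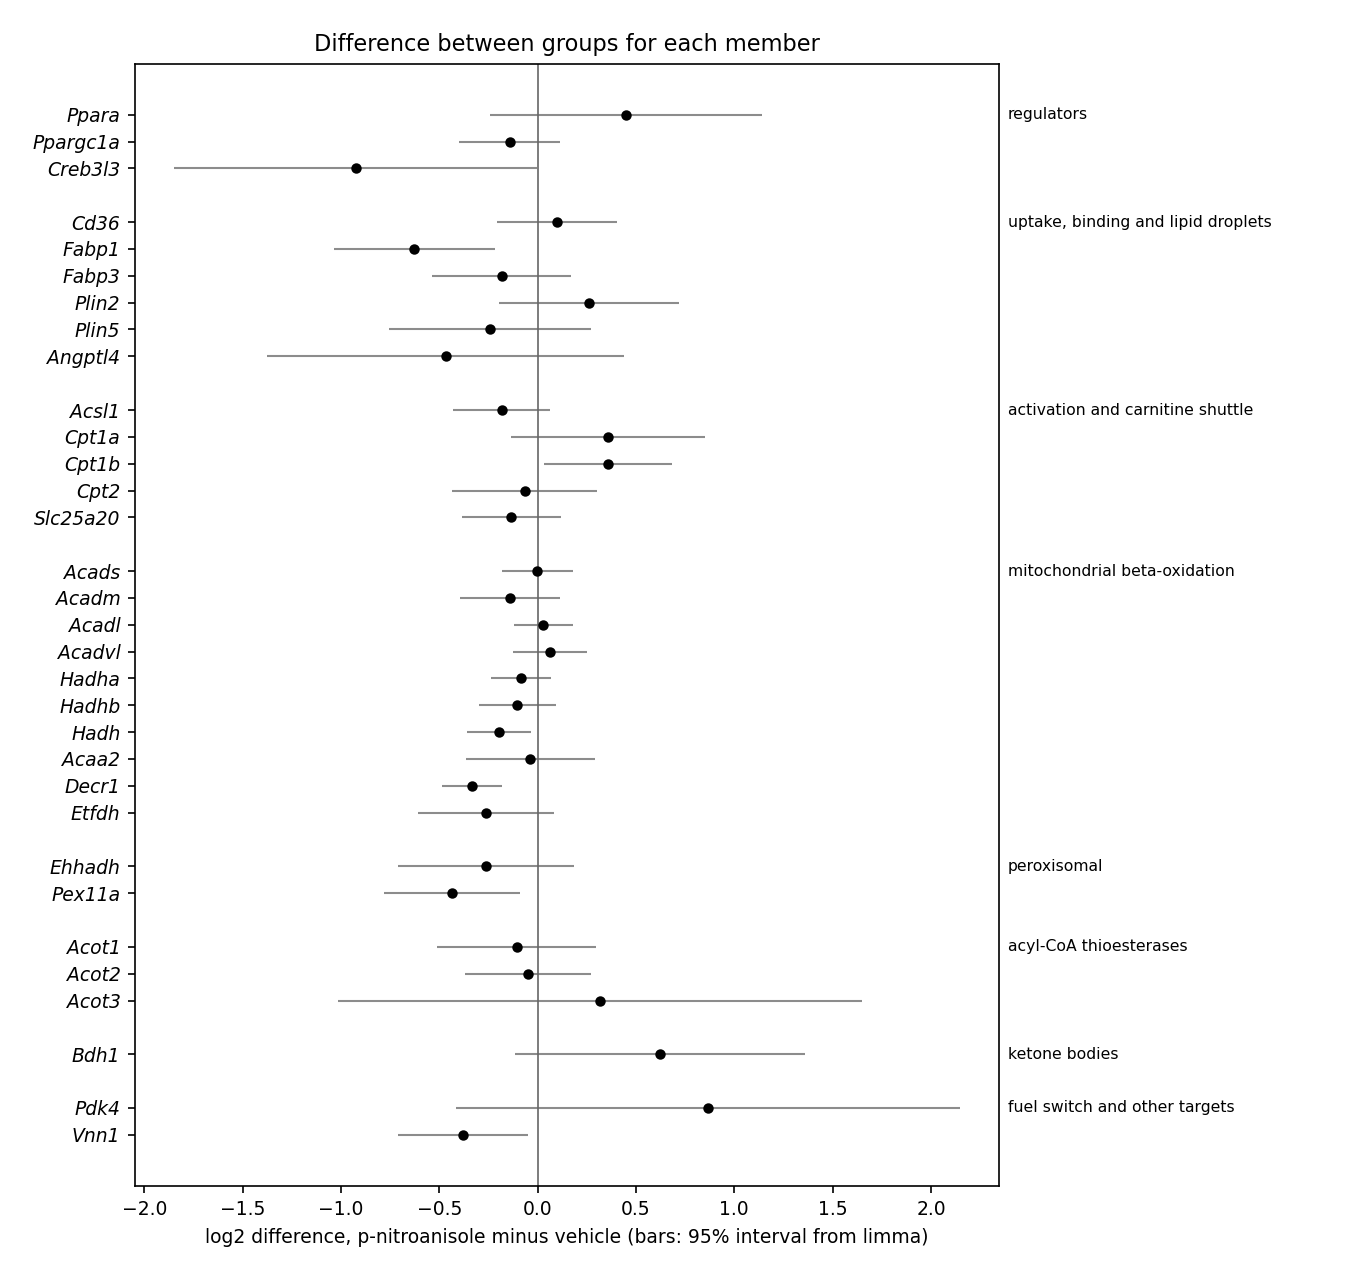
Log2 difference (p-nitroanisole minus vehicle, x axis) of each of the 32 tested members, grouped by role, with points for the difference of the 2 group means (3 arrays each) and bars for the 95% interval from limma. The widest intervals belong to Acot3 and Pdk4 and the narrowest are those of mitochondrial enzymes, and most points lie within 0.5 of 0.

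Among the regulators, Ppara encodes PPAR-alpha itself. Its level was 0.31, 0.40 and 0.11 in the vehicle animals and 0.92, 1.16 and 0.09 in the treated animals. Treated replicates 1 and 2 were thus above every vehicle array, whereas treated replicate 3 was the lowest of the 6. The difference was 0.45 (SE 0.28, 95% interval -0.24 to 1.14, limma adjusted p = 0.533), and a second Ppara probe gave 0.43. Within the first slide, which holds treated replicates 1 and 2, it was 0.77 with a limma adjusted p of 0.179. Treated replicate 3 alone against the vehicle arrays was -0.19.

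Creb3l3 encodes a membrane-bound transcription factor that partners PPAR-alpha in fasting gene programmes. Its level was 2.86, 3.17 and 2.19 in the vehicle animals and 2.16, 2.17 and 1.12 in the treated animals. The groups did not overlap, but vehicle replicate 3 lay just above the 2 higher treated arrays. The mean was 1.90-fold lower with treatment, a log2 difference of -0.93 (SE 0.38, interval -1.85 to -0.0027, limma adjusted p = 0.371). A second probe gave -0.90 with overlapping groups, and the difference within the first slide was -0.58. Ppargc1a, the coactivator that drives mitochondrial gene expression, differed by -0.14 (SE 0.10, limma adjusted p = 0.587) with overlapping groups.

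The members for uptake, binding and storage of fatty acids gave 4 lower and 2 higher differences. Fabp1, the liver-type fatty acid binding protein, had levels of -3.24, -3.32 and -3.66 in the vehicle animals and -4.26, -3.77 and -4.08 in the treated animals. Every treated array lay below every vehicle array. The difference was -0.63 (SE 0.17, interval -1.04 to -0.22, limma adjusted p = 0.228), or 1.54-fold lower with treatment. The probe was dim, with processed intensities of 48.3 to 108. With normexp background correction the difference was -0.23, and the second Fabp1 probe gave -0.18 with overlapping groups.

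Angptl4, a secreted inhibitor of lipoprotein lipase, spread widely in both groups. Its level was 4.36, 4.64 and 3.61 in the vehicle animals and 4.26, 3.79 and 3.16 in the treated animals. Replicate 3 was the lowest array of each group and the groups overlapped. The difference was -0.47 (SE 0.37, interval -1.37 to 0.44, limma adjusted p = 0.611), and -0.18 within the first slide.

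Plin2, a coat protein of lipid droplets, was at 4.93, 5.09 and 4.56 in the vehicle animals and 5.35, 5.18 and 4.84 in the treated animals. Treated replicates 1 and 2 were above the vehicle arrays and treated replicate 3 was not. The difference was 0.26 (SE 0.19, limma adjusted p = 0.574). Plin5, the perilipin that tethers droplets to mitochondria, differed by -0.24 (SE 0.21), and treated replicate 3, at -4.11, stood below the other 5 arrays at -3.27 to -3.56. Fabp3, the heart-type binding protein, differed by -0.18 (SE 0.14). Cd36, a fatty acid transporter of the plasma membrane, differed by 0.10 (SE 0.12), and it was the one member whose probes differed in sign, at 0.10, -0.06 and 0.05.

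Activation and carnitine transfer gave 2 higher and 3 lower differences, and differences between the steps were not tested. The rate-controlling transferases of the outer mitochondrial membrane, Cpt1a and Cpt1b, had the 2 higher differences of this group. Cpt1b, the muscle-type isoform, was at 1.81, 1.99 and 1.52 in the vehicle animals and 2.18, 2.17 and 2.03 in the treated animals. The treated arrays were all above the vehicle arrays, with vehicle replicate 2 just below the lowest of them. The difference was 0.36 (SE 0.13, interval 0.03 to 0.68, limma adjusted p = 0.339), and its other 2 probes gave 0.43 and 0.13. Those 2 probes were dim, with processed intensities of 24.4 to 39.3 and 55.1 to 79.7, and on both the groups overlapped. The striated muscle markers, of which Acta1, Myh2, Myl1, Myh6 and Myh7 were not well above background, had a summed linear level over 5 tested genes of 0.466 to 0.557 in the vehicle group and 0.518 to 0.661 in the treated group. Tnnc2 was the brightest of these, with a vehicle mean log2 level of -1.67, so the sum mostly follows it. Taken singly, 4 of the 5 were higher with treatment and 1 lower, from -1.22 (Myh4) to 1.11 (Actn3). The part of these markers in the Cpt1b difference was not tested.

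Cpt1a, the liver-type isoform, was at 3.16, 2.46 and 2.61 in the vehicle animals and 3.11, 3.26 and 2.94 in the treated animals. Vehicle replicate 1 fell inside the treated range, so the groups overlapped. The difference was 0.36 (SE 0.20, interval -0.13 to 0.85, limma adjusted p = 0.489). Downstream, Slc25a20, the carnitine-acylcarnitine carrier of the inner membrane, differed by -0.13 (SE 0.10). Cpt2, which restores the acyl-CoA in the matrix, differed by -0.06 (SE 0.15) and by 0.07 without treated replicate 3. Acsl1, a long-chain acyl-CoA synthetase, differed by -0.18 (SE 0.10), and its 4 probes gave -0.05 to -0.18.

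The 10 mitochondrial beta-oxidation enzymes were measured most tightly. Their SDs were 0.017 to 0.12 in the vehicle group and 0.024 to 0.25 in the treated group, whereas the medians over all members were 0.15 and 0.21. Of the 10 differences 8 were below 0, with a median of -0.09, and 9 of the 95% intervals lay within 0.5 of 0 in log2. The acyl-CoA dehydrogenases, which catalyse the first step for short (Acads), medium (Acadm), long (Acadl) and very long (Acadvl) chains, gave differences of -0.0022, -0.14, 0.03 and 0.06, with SEs of 0.06 to 0.10. The trifunctional protein subunits Hadha and Hadhb, which carry out the later steps for long chains, gave -0.09 (SE 0.06) and -0.10 (SE 0.08). Acaa2, the matrix thiolase, differed by -0.04 (SE 0.13), with treated replicate 3 at 5.61 and the other arrays at 5.91 to 6.06.

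Decr1, the mitochondrial 2,4-dienoyl-CoA reductase needed for polyunsaturated chains, had the smallest p of the members. Its level was 5.78, 5.86 and 5.76 in the vehicle animals and 5.49, 5.46 and 5.44 in the treated animals. Both groups were tight and did not overlap. The difference was -0.33 (SE 0.06, interval -0.49 to -0.18, limma adjusted p = 0.147), or 1.26-fold lower with treatment. With a trended robust variance it passed the threshold, at a limma adjusted p of 0.0356, in a fit that called 316 rows.

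Hadh, the hydroxyacyl-CoA dehydrogenase of short and medium chains, was at 7.45, 7.44 and 7.38 in the vehicle animals and 7.17, 7.30 and 7.22 in the treated animals. The treated arrays were again all lower. The difference was -0.19 (SE 0.07, interval -0.36 to -0.03, limma adjusted p = 0.314), and a second probe gave -0.25. Etfdh, which passes electrons from the dehydrogenases to ubiquinone, differed by -0.26 (SE 0.14, limma adjusted p = 0.472), and treated replicate 1 at 2.96 stood below the other arrays at 3.33 to 3.60.

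The members grouped as peroxisomal were Pex11a and Ehhadh, and the peroxisomal thioesterase Acot3 is described with its paralogs. Pex11a, a membrane protein that promotes peroxisome division, was at 5.44, 5.31 and 5.20 in the vehicle animals and 5.10, 4.93 and 4.62 in the treated animals. The treated arrays were all below the vehicle arrays, and treated replicate 3 was the lowest. The difference was -0.43 (SE 0.14, interval -0.78 to -0.09, limma adjusted p = 0.294), or 1.35-fold lower with treatment. The other 2 probes gave -0.44 and -0.46, and within the first slide the difference was -0.30.

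Ehhadh, the peroxisomal bifunctional enzyme, was at 3.26, 3.36 and 3.07 in the vehicle animals and 3.17, 3.14 and 2.58 in the treated animals. Treated replicate 3 stood apart and the other treated arrays lay among the vehicle arrays. The difference was -0.26 (SE 0.18, limma adjusted p = 0.563), and -0.07 without treated replicate 3.

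Acyl-CoA thioesterases release free fatty acid from acyl-CoA. Acot1 (cytosolic) differed by -0.11 (SE 0.16) and Acot2 (mitochondrial) by -0.05 (SE 0.13), with limma adjusted p-values of 0.799 and 0.888. Acot3, a peroxisomal form, was at 1.81, 0.93 and 0.12 in the vehicle animals and 0.76, 2.14 and 0.91 in the treated animals. The vehicle arrays spanned most of the treated range, and the difference of 0.32 had an interval of -1.01 to 1.65. These genes are close paralogs, and signal shared between their probes was not tested.

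Bdh1, which interconverts the ketone bodies acetoacetate and 3-hydroxybutyrate, was at -0.23, -0.05 and 0.66 in the vehicle animals and 0.49, 1.21 and 0.54 in the treated animals. Vehicle replicate 3 lay inside the treated range. The difference was 0.62 (SE 0.30, interval -0.12 to 1.36, limma adjusted p = 0.435).

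A list of 7 further ketone genes had 3 differences below 0 and a median of 0.08. The thiolase Acat1 differed by 0.14. On the side of ketone use, Oxct1 differed by 0.08, Aacs by 0.12 and Bdh2 by 0.12. Slc16a1, a monocarboxylate transporter, differed by -0.19. None of the 7 passed the limma threshold.

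Pdk4, the kinase that blocks pyruvate entry to the citric acid cycle during fat use, had the highest difference of the tested members, with SDs of 0.85 (vehicle) and 0.69 (treated). Its level was -1.78, -1.39 and -3.01 in the vehicle animals and -0.48, -1.24 and -1.86 in the treated animals. Vehicle replicate 3 was far below the others and treated replicate 3 lay among the vehicle arrays. The mean was 1.82-fold higher with treatment, a log2 difference of 0.87 (SE 0.52, interval -0.41 to 2.15, limma adjusted p = 0.517). The difference was 0.39 without vehicle replicate 3 and 1.20 without treated replicate 3.

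Vnn1, a pantetheinase and known PPAR-alpha target, was at 4.62, 4.83 and 4.41 in the vehicle animals and 4.37, 4.27 and 4.08 in the treated animals. The groups did not overlap, although vehicle replicate 3 was close to treated replicate 1. The difference was -0.38 (SE 0.14, interval -0.71 to -0.05, limma adjusted p = 0.324), or 1.30-fold lower with treatment.

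**Figure D2:**
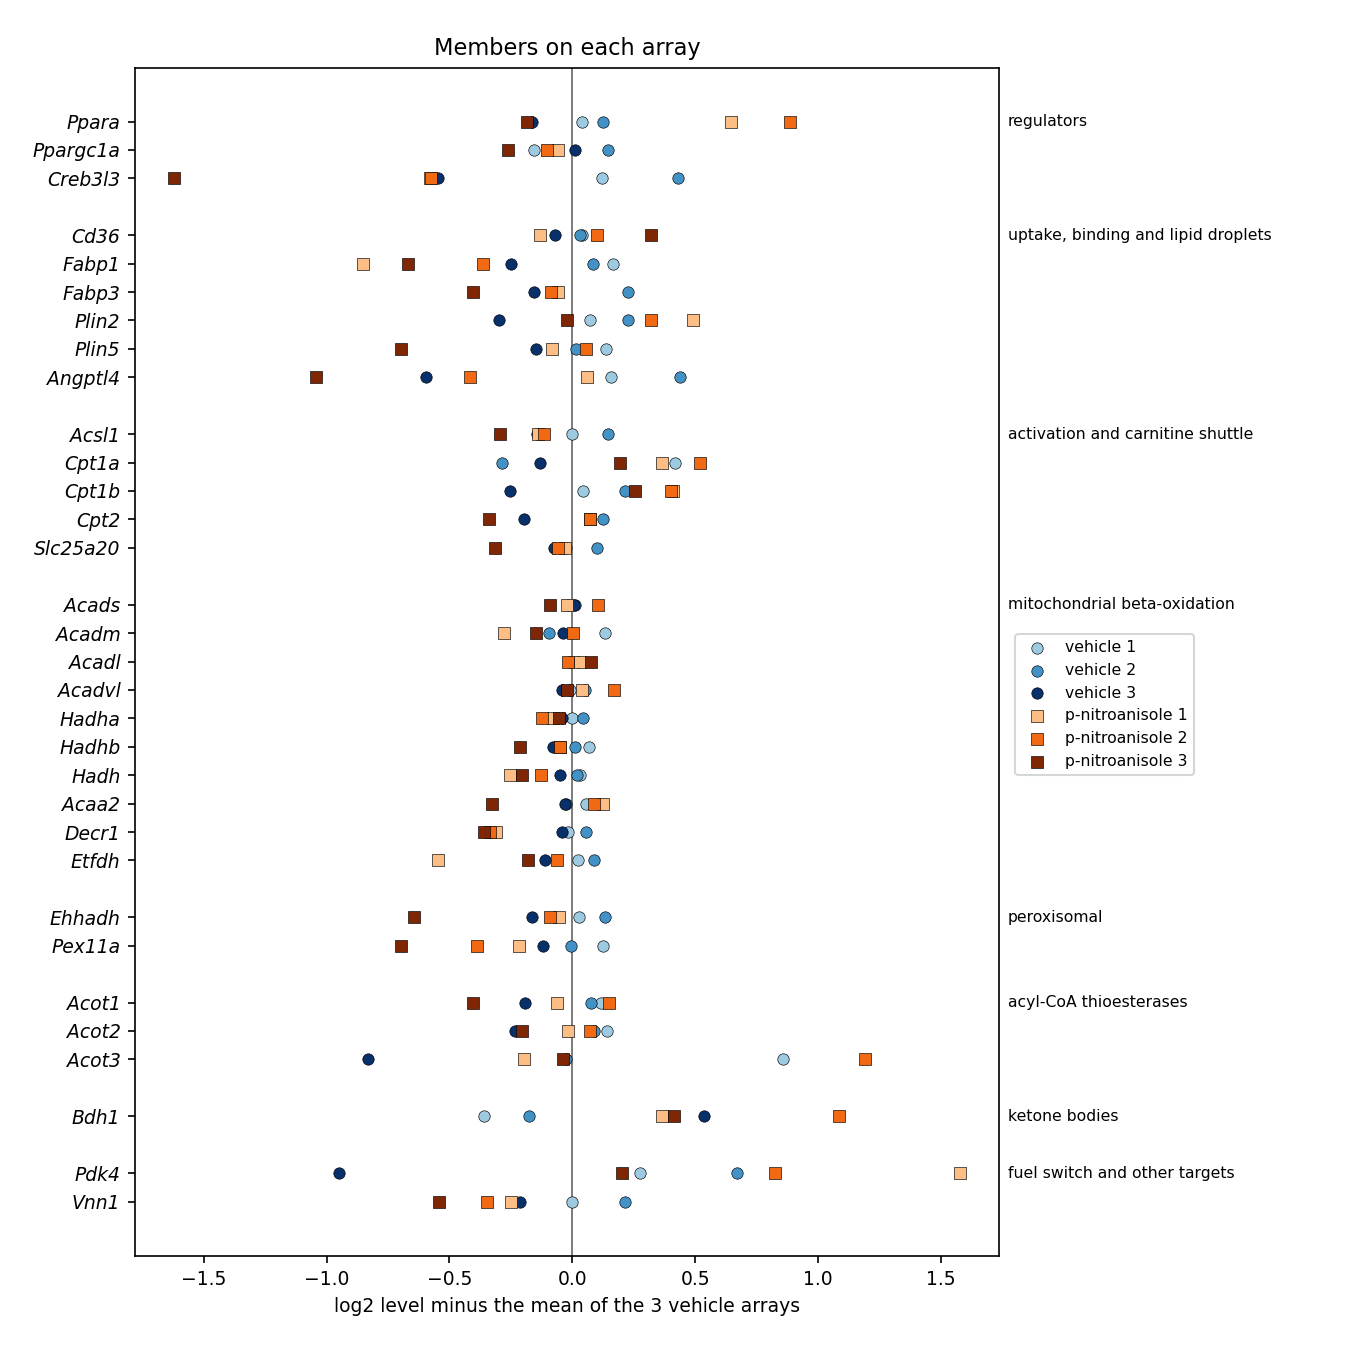
Log2 level of each tested member on each of the 6 arrays minus the mean of its 3 vehicle arrays (x axis), with circles for vehicle and squares for p-nitroanisole animals and darker shades for higher replicate numbers. The darkest markers, replicate 3 of each group, lie to the left of their own group for most members, and the mitochondrial enzymes lie closest together.

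The mitochondrial and peroxisomal steps were then compared using the other genes of both routes. The 14 mitochondrial members (4 of the carnitine step and 10 enzymes) had 10 differences below 0 and a median of -0.07. Without treated replicate 3 these became 7 of 14 and -0.02. Of 19 further genes listed as mitochondrial, 15 were tested, with 7 below 0 and a median of 0.04. Their highest differences were those of the branched-chain dehydrogenase Acadsb (0.27, SE 0.14) and of Acad11 (0.21, SE 0.11). Their lowest were those of the thioesterase Acot7 (-0.33, SE 0.12) and the enoyl-CoA isomerase Eci1 (-0.31, SE 0.14). The listing was by name, and the compartment of each protein was not tested.

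For the peroxisome, 22 of 24 listed genes of beta-oxidation and transport were tested, and they gave 10 differences above 0 and 12 below, with a median of -0.0021. With Pex11a and Ehhadh added, 14 of 24 were below 0 and the median was -0.0042. Without treated replicate 3 these became 9 of 24 and 0.014. None passed the limma threshold. The multifunctional enzyme Hsd17b4 differed by 0.11, and the thiolases Acaa1a, Acaa1b and Scp2 by 0.10, 0.12 and -0.02.

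At an unadjusted p under 0.05 that list held 1 higher and 1 lower gene. The lower gene, Pecr, is an enoyl-CoA reductase. Its level was 3.97, 4.04 and 4.0 in the vehicle animals and 3.66, 3.79 and 3.83 in the treated animals. All treated arrays were lower, with a difference of -0.25 (SE 0.07, limma adjusted p = 0.259).

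The oxidases Acox2, for branched chains and bile acid intermediates, and Acox3 differed by 0.38 (SE 0.40) and -0.25 (SE 0.18). The transporters Abcd3 and Slc27a2 differed by -0.05 and -0.0056. For the auxiliary enzymes of unsaturated chains the differences were -0.22 (Ech1), -0.10 (Eci2) and -0.0015 (Decr2). The alpha-oxidation enzymes Phyh and Hacl1 gave -0.0027 and -0.14, and the racemase Amacr gave 0.13. Carnitine octanoyltransferase, Crot, gave 0.10. The thioesterases Acot4, Acot5 and Acot8 and the CoA hydrolase Nudt19 gave -0.0080, -0.04, 0.13 and 0.24.

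The 18 genes of peroxisome biogenesis and catalase had 11 differences below 0 and a median of -0.02. The highest difference was that of Pex26 (0.49, SE 0.38) and the lowest that of Pxmp4 (-0.39, SE 0.26). Pex26 was dim, with a vehicle mean log2 level of -3.69. Its treated replicate 3 lay 1.38 above that mean, and treated replicates 1 and 2 together lay 0.04 above it. The median of Pex11a and Ehhadh was -0.35, whereas Acot3, which is in neither list, differed by 0.32. No test of members against lists was made.

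**Figure D3:**
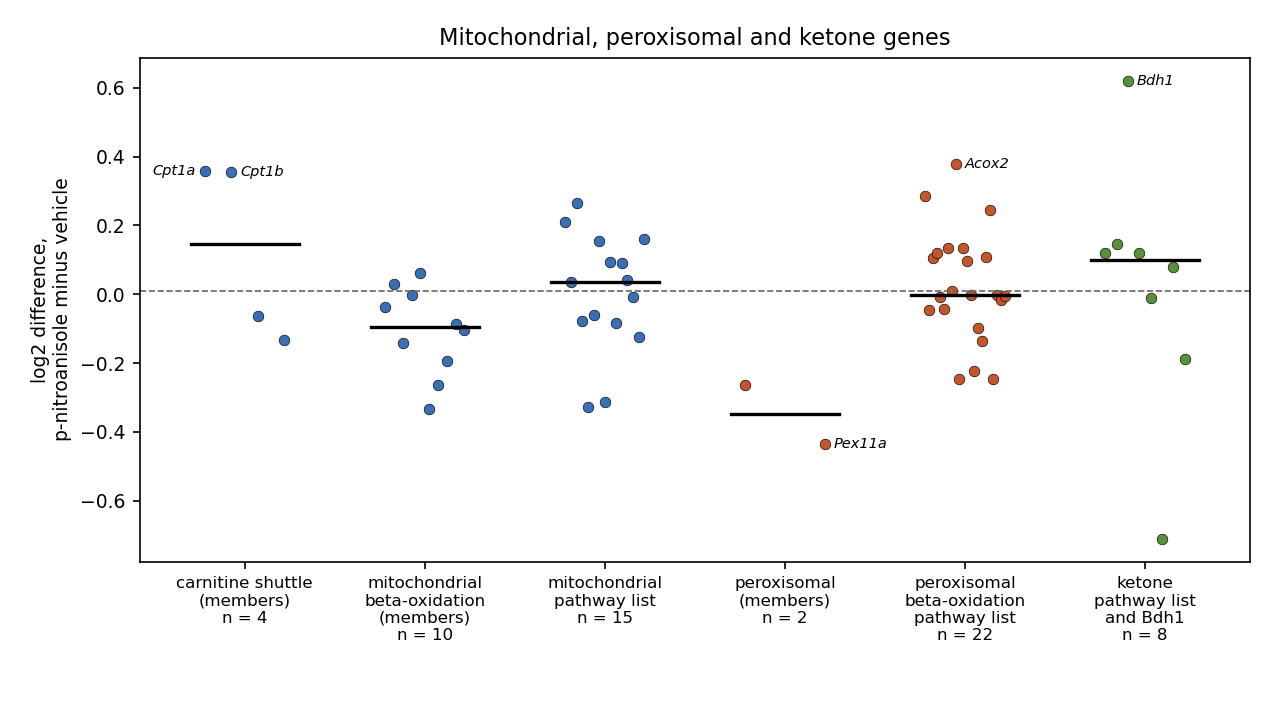
Log2 difference (p-nitroanisole minus vehicle, y axis) of single genes, 1 point each, for mitochondrial (blue), peroxisomal (red) and ketone (green) genes, with black bars for the median of each group and a dashed line for the median of all rows, 0.01. The medians of the larger mitochondrial and peroxisomal lists lie close to that line, and Bdh1 lies above the other ketone genes.

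Of 16 tested carnitine and acyl-CoA synthetase genes 8 were below 0 (median -0.0020). Bbox1, the last enzyme of carnitine synthesis, had the lowest difference of all the pathway genes, -1.01, with an SE of 0.62. Its probe was dim and the groups overlapped. Levels were -4.80, -5.54 and -5.48 in the vehicle animals and -7.61, -5.16 and -6.08 in the treated animals. Acsm5 followed at -0.51 (SE 0.21), and the highest were Acsm3 at 0.42 (SE 0.68) and Acsl4 at 0.30 (SE 0.17).

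Omega oxidation, in which CYP4 enzymes hydroxylate the far end of the chain, gave 3 of 6 genes below 0. Cyp4a1 and Cyp4a3 differed by -0.30 each (SEs 0.24 and 0.49), while Cyp4a2 and Cyp4f1 differed by 0.04 and 0.10. The Cyp4a genes are also close paralogs. In lipid storage 3 of 11 genes were below 0 (median 0.07), with Lpl, the lipase that Angptl4 inhibits, at 0.33 (SE 0.13), Cidea at 0.28, Abhd5 at -0.16 and G0s2 at -0.08. A list of nuclear receptors and co-factors had 7 of 13 tested genes below 0. It also held Pdk1, Pdk2 and Ucp2, which are neither. Pdk1 was at 0.33 (SE 0.10), Ucp2 at 0.24, Ppargc1b at -0.30 and Ppard at -0.22. Over all 108 tested pathway genes of 126 listed, 54 were below 0, the median was 0.0033, none passed the limma threshold and 8 had an unadjusted p under 0.05, 5 higher and 3 lower.

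The spread between arrays was ordered. Vehicle replicate 3 was the lowest vehicle array for 27 of the 32 members (84.4%, against 33.4% of all rows). Treated replicate 3 was the lowest treated array for 23 members (71.9%, against 37.3%) and the lowest of all 6 for 17 (53.1%, against 22.4%). It is the only array on its slide, so for it animal and slide cannot be told apart. Vehicle replicate 2 was the highest vehicle array for 19 members (59.4%, against 31.6%). Replicate 3 was below the mean of the other 2 arrays for 29 members in the vehicle group and for 28 in the treated group. It was so in both groups for 25 members (78.1%), beside 25.4% of all rows and 35.2% of the 108 pathway genes. Whether the 2 groups share an ordering, beyond these separate counts, was not tested. The shared number does not pair these animals in the labels.

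The size of this ordering is given beside the median difference between the groups, -0.10. The 2 are not alike. The ordering sets 1 array, picked because it was often the lowest, against the mean of 2, whereas the group difference sets 3 arrays against 3. Vehicle replicate 3 minus the mean of the other vehicle arrays had a median of -0.21 over the members. Treated replicate 3 minus the mean of the other treated arrays had a median of -0.25. As deviations from the vehicle mean, the median member was at 0.04, 0.08 and -0.14 on the vehicle arrays and at -0.06, -0.0078 and -0.21 on the treated arrays. Treated replicates 1 and 2 together lay -0.03 from the vehicle mean, with 18 members lower, and treated replicate 3 lay -0.21 from it, with 26 lower.

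Differences between gene groups in this ordering were not tested, so the values are given side by side. For uptake, binding and lipid droplets the median deviation was 0.10, 0.16 and -0.20 on the vehicle arrays and -0.07, -0.02 and -0.54 on the treated arrays. Pex11a and Ehhadh together were at 0.08, 0.06 and -0.14 on the vehicle arrays and at -0.14, -0.24 and -0.67 on the treated arrays. The 14 mitochondrial members were at 0.03, 0.03 and -0.05 in the vehicle group and at -0.03, -0.0078 and -0.16 in the treated group, and replicate 3 was lower in both groups for 10 of them (71.4%).

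The lists beyond the members gave other values. For the 15 further genes listed as mitochondrial the median deviation on treated replicate 3 was 0.06, and vehicle replicate 3 was the lowest vehicle array for 3 of them (20%). For Pex11a, Ehhadh and the 22 listed peroxisomal genes as 1 group it lay between -0.04 and 0.09 on the 6 arrays, and replicate 3 was lower in both groups for 12 of the 24 (50%). The SD of the 6 array medians was 0.11 for all members, 0.068 for the mitochondrial members and 0.059 for these 24 peroxisomal genes.

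**Figure D4:**
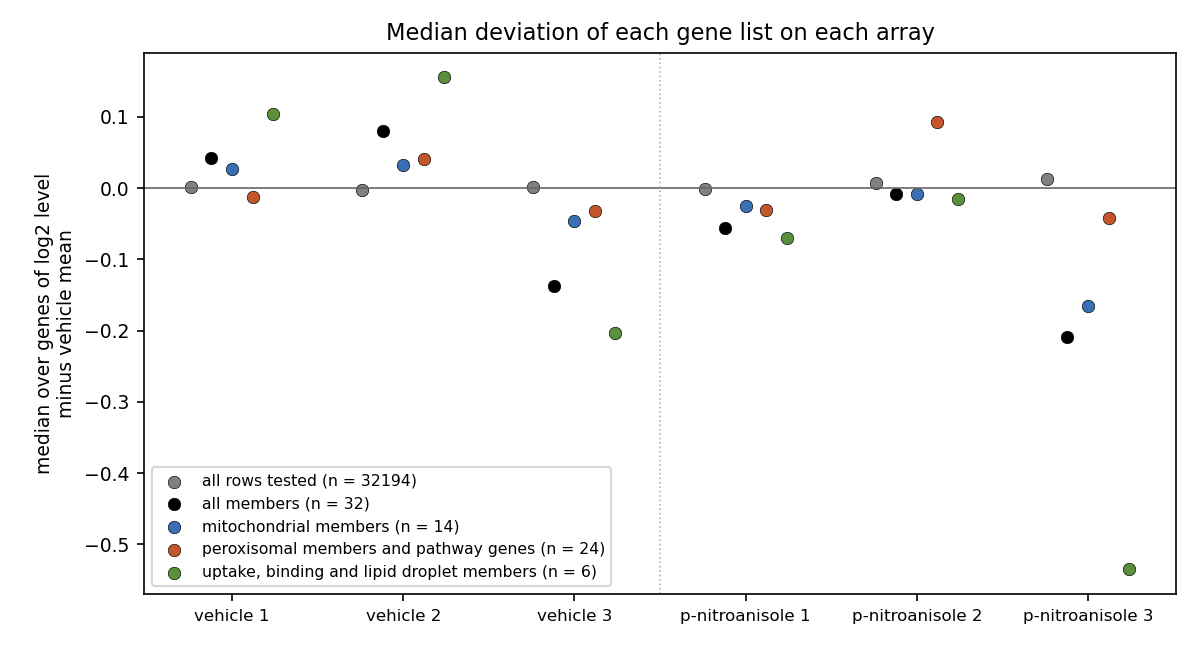
Median over the genes of each list of the log2 level minus the vehicle mean (y axis) on each of the 6 arrays, 1 point per list and array, with the lists told apart by colour. All rows together stay within 0.013 of 0, while the members are lowest on replicate 3 of each group, and the lowest point plotted is that of the uptake, binding and lipid droplet members on treated replicate 3.

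Spread differed by gene as well. An SD over 0.3 was found for 6 members in the vehicle group and 8 in the treated group, and Acot3, Pdk4, Bdh1, Angptl4 and Creb3l3 exceeded it in both. Median SDs over the members were 0.15 (vehicle) and 0.21 (treated), beside 0.11 and 0.13 over all rows.

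Markers of other cells moved unevenly beside these values. The 6 tested macrophage markers of 7 had a summed linear level of 25.4 to 31.2 in the vehicle group and 17.0 to 26.5 in the treated group, lowest on treated replicate 3. The 4 tested adipocyte markers of 7 summed to 1.28 to 1.62 and 0.819 to 1.34, also lowest on treated replicate 3, where Adipoq was at -1.16 against -0.35 to 0.26 on the other arrays. The other tested adipocyte markers differed by 0.56 (Cfd, with all treated arrays above all vehicle arrays), 0.14 (Cidec) and -0.07 (Retn). Lep and Fabp4 were not well above background. The 8 collecting duct markers summed to 316 to 350 and 289 to 304, and the 5 tested red cell markers of 7 to 159 to 183 and 296 to 337, with Alas2 past the limma threshold (adjusted p = 0.0403). The 5 tested hepatocyte markers of 8 summed to 9.58 to 11.4 and 9.54 to 11.0, with Cps1, Apoa2 and Serpina1 not well above background. Apoc3 was by far the brightest of them, with a vehicle mean log2 level of 3.15, so the sum mostly follows Apoc3. The other vehicle means ran from -3.27 (Ttr) to -0.19 (Fgb). The part of these cells in the members' differences was not tested.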

How the data were processed

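Each of the 6 samples was 1 animal's renal cortex RNA on 1 Agilent 1-colour array. The deposited scanner files give the intensity of each spot after the background subtraction of Feature Extraction (version 10.7.1.1, per the file headers). The authors' deposited signal table, used as an alternative, equalled that intensity divided by 1 constant per array, 1.001 to 1.003 times the 75th percentile; its scale is linear, it is not centred by gene, and its column medians were 0.105, 0.105, 0.105 (vehicle), 0.109, 0.108 and 0.111 (treated). RNA was quality-checked and labelled with Cy3, per the labels' protocols.

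Here intensities were scaled within an array to its 75th percentile, taken over the 61537 probes that are not controls, and log2 taken, with intensities floored at 1 and 0 to 4 outlier-flagged probes per array left out. Probes well above background on all 3 arrays of a group were kept (41219), and the brightest kept probe stood for its gene. Gene names came from array accessions matched to RefSeq, for 28206 probes (45.84%) and 15645 genes. A linear model (limma 3.58.1, R 4.3.3, empirical Bayes, two-sided, Benjamini-Hochberg over 32197 rows) was tested on simulated data. The smallest p an exact permutation of 3 against 3 can give is 0.1, so none was used.

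All members are named, along with the 2 highest and 2 lowest genes of each pathway list and every peroxisomal beta-oxidation and ketone gene tested. Some genes that this rule names are not reported here. Members and lists were chosen with earlier results of these data known. Alternatives covered scaling, background correction, probe filters, variance, slide, slide row, replicate block, threshold and leaving out each array. No coordinates of the array's own build were used, and no probe sequences were used here.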

Additional observations from a re-analysis of the deposited data

How the results depend on the processing

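With limma, 24 genes or unnamed probes passed over the whole array, and this count was 85 with normexp background correction, 2 with no filter on dim probes, 316 with a trended robust variance, 9 with slide as a block and 9 within slide 1, 1000 with slide row as a block (where treated replicate 3 alone faces the vehicle arrays), 0 at a threshold of 0.01 (4329 at an unadjusted p under 0.05) and 0 to 9 with 1 array left out. It was 0 without vehicle replicate 2 and without treated replicate 1, with 3262 and 3718 at an unadjusted p under 0.05, and 1, 7, 5 and 9 without vehicle replicates 1 and 3 and treated replicates 2 and 3. A trended robust variance called 1 member, Decr1; the other alternatives called 0 members. A replicate block gave 1 call and 0 members, with a smallest member limma adjusted p of 0.294. The labels do not pair the animals by number. Deviations of same-numbered arrays correlated at -0.0088, 0.040 and -0.010, and not every array correlated best with its own number. With 3 arrays per group these values cannot decide whether the numbers pair animals. With slide row as a block the median of the mitochondrial members was -0.16, and Ppara (-0.19), Plin2 (-0.022), Acadvl (-0.020) and Acot3 (-0.038) changed sign. Slide as a block and within slide 1 turned Cd36 (-0.015), Cpt2 (0.072), Acads (0.042), Acaa2 (0.11), Acot1 (0.043) and Acot2 (0.029). Acadl turned under quantile (-0.044) and median scaling (-0.027). Leaving out 1 array gave ranges of -0.015 to 0.21 for Cd36, -0.16 to 0.072 for Cpt2, -0.055 to 0.042 for Acads, -0.12 to 0.11 for Acaa2, -0.23 to 0.043 for Acot1, -0.16 to 0.029 for Acot2 and -0.12 to 0.75 for Acot3. The cause was not tested. The median over members stayed below 0 under every alternative run (-0.21 to -0.03), and that over the 24 peroxisomal genes ran from -0.06 to 0.03. Dim probes such as Fabp1 are limited by their signal over background.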
